A study of Mus musculus with 6 samples.

Results

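RANK, RANKL, OPG and LGR4 are the receptors and ligand that start osteoclast formation and the decoy that holds it back. RANK (gene Tnfrsf11a) is a receptor of the tumour necrosis factor family on osteoclast precursors, and its ligand RANKL (Tnfsf11) is made mainly by osteoblast-lineage cells, osteocytes and lymphocytes. OPG, or osteoprotegerin (Tnfrsf11b), is a secreted decoy receptor that binds RANKL and keeps it from RANK. LGR4 (Lgr4) is a seven-helix receptor for R-spondins that has also been described as a further receptor for RANKL, acting against RANK signalling in precursors. The members were every probe set paired with 1 of these 4 gene symbols alone in the platform annotation, 8 probe sets in all, 2 for each gene, out of 34945 single-gene probe sets for 18193 genes.

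The study's 2 groups were wild-type (WT) and knockin (KI) bone marrow macrophages of the strain C57BL/6, with 3 arrays each. All cells had received M-CSF at 44 ng/ml and RANKL protein at 100 ng/ml for 24 hours, so there was no group without RANKL. The series title refers to RANK and its IVVY motif, which lies in the cytoplasmic part of the receptor, but the labels describe neither the altered residues nor the allele. The labels give no age of the mice, nor do they state whether the 3 arrays of a genotype came from separate mice, so the p-values measure the spread between these arrays only. The question was whether the genes of this receptor system differed between the genotypes.

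The arrays had median intensities from 83.0 to 84.8, on the deposited linear scale. Of the 22518 probe sets tested after a filter on low values, 44.9% passed an adjusted p of 0.05 by limma in either direction and 25.6% passed as lower in KI. Any single call below has to be read against that background. All 11 macrophage markers lay above the filter, which stood at an intensity of 84.7. They were tested by limma in a separate fit of 1 probe set per gene without the filter. There 8 of them (72.7%, against 11.9% of all genes) passed as higher in KI and 0 as lower. Spi1 differed in the other direction (-0.38 on the log2 scale, adjusted p = 0.084 by limma). However, 0 passed when KI 1, KI 2 or KI 3 was left out or with the description number as covariate, and 4 passed without WT 2. Under the newer and older spike-in scaling 5 and 4 passed as higher, and 1 as lower in each. A marker also passed as lower without WT 1, and without both WT 1 and KI 1. In the unfiltered fit of all probe sets Adgre1 and Itgam did not pass. The summed intensity of the 11 markers ran from 98161 to 122926 on the WT arrays and from 153518 to 161561 on the KI arrays. WT 1 had the lowest macrophage sum of the 6 arrays.

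Only Tnfrsf11a was read clearly above the low range of the array. Its 2 probe sets had intensities from 399 to 1143, and both passed the filter. The 6 probe sets of Tnfsf11, Tnfrsf11b and Lgr4 lay between 13.04 and 74.4 on all arrays, and none of them passed it. Between genotypes, 1 Tnfrsf11a probe set was lower in KI cells with no overlap of the arrays, and the other gave no difference beyond the spread. Of the 6 dim probe sets, 1 of Lgr4 was also lower in KI, by a small amount. Its call came from a fit without the filter, in which 10.5% of 45037 probe sets passed as lower in KI. The share of all probe sets whose groups did not overlap was not counted, so a lack of overlap does not by itself mark these members.

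**Figure D1:**
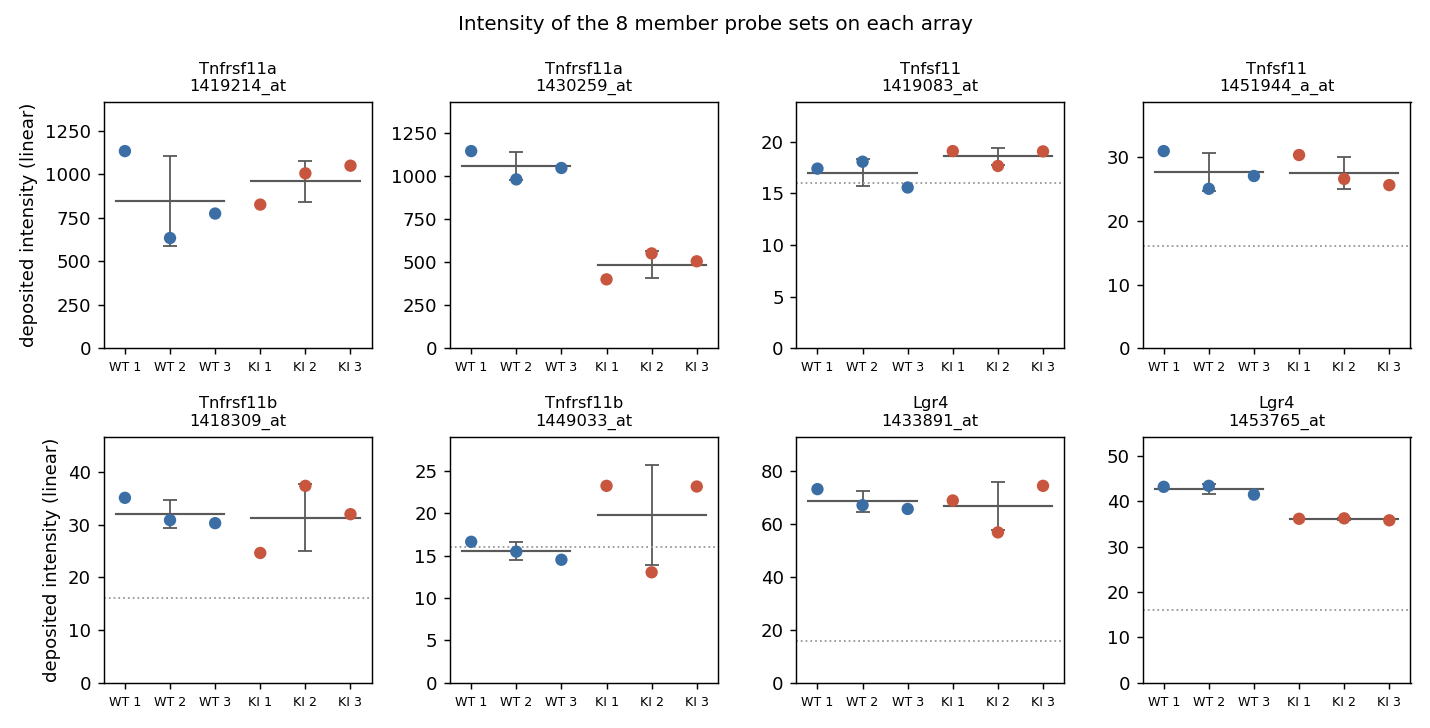
Deposited intensity (linear axis from 0) of the 8 probe sets on each array, with WT arrays in blue and KI arrays in red. Horizontal lines are group means and bars are ± 1 SD (n = 3); the dotted line marks the floor of 16. The groups stand apart for Tnfrsf11a 1430259_at and Lgr4 1453765_at, and overlap for the other 6. The share of all probe sets whose groups stand apart was not counted.

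Tnfrsf11a encodes the receptor whose motif the study concerns. The gene lies on chromosome 1 at chr1:105780673-105849444 in the mouse build GRCm38.p6, per RefSeq. The DNA just before its annotated start is shown here because this is the one member read well above the floor. The stretch chr1:105780473-105780672, plus strand, 5′ to 3′, is from the RefSeq promoter table; capitals mark the 2 matches to the NF-kB pattern.

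Tnfrsf11a, 200 bases upstream: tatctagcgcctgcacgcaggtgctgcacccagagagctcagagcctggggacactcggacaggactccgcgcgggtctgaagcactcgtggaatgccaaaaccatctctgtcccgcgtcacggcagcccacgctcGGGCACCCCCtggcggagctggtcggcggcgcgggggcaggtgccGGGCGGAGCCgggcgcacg

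These bases had a GC content of 71.0%, against a median of 51.5% over windows made of the first 200 bases of 32851 table entries. Unlike the stretch shown, those windows do not all end at the annotated start of their gene. The patterns were searched on both strands and matches could overlap. The NF-kB pattern (GGG, any 5 bases, then CC) was found 2 times, centred 59 and 14 bases before the annotated start, and 37.2% of all such windows hold it. The NFAT core GGAAA (in 48.5% of windows), the AP-1 pattern TGANTCA (5.6%), the PU.1 core GAGGAA (18.8%), the MITF patterns CACGTG (4.3%) and CATGTG (10.2%) and the TATA pattern TATAAA (9.1%) were not in these 200 bases. A match is a match of letters only; no binding was measured.

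The probe set 1430259_at of Tnfrsf11a read 1143, 979 and 1045 on WT 1, WT 2 and WT 3, and 399, 549 and 504 on KI 1, KI 2 and KI 3. Every KI array lay below every WT array, and the highest KI value was well under the lowest WT value. The means were 1056 ± 82.6 (SD, n = 3) in WT and 484 ± 77.2 (SD, n = 3) in KI. The log2 level fell by 1.14 in KI cells (95% interval -1.46 to -0.81, SE 0.13, adjusted p = 0.0015 by limma), so that it was 2.20-fold higher in WT. A two-sided exact permutation test over the 6 arrays gave p = 0.1, the smallest that 3 against 3 arrays allow. The gene's other probe set gave no difference beyond its spread (0.22 on the log2 scale, adjusted p = 0.45 by limma). Whether the whole transcript fell was therefore not settled. If it did, fewer cells that carry it and less of it in each cell cannot be told apart in these bulk samples. The call for 1430259_at held in each of the 16 alternative settings, with log2 differences from -1.67 to -0.94 and adjusted p up to 0.021 by limma.

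The probe set 1419214_at of the same gene read 1134, 634 and 775 on WT 1, WT 2 and WT 3, and 826, 1006 and 1050 on KI 1, KI 2 and KI 3. The WT arrays were spread over a wider range than the KI arrays, and WT 1 was the highest of all 6, so the groups overlapped. The means were 847 ± 258 (SD, n = 3) in WT and 961 ± 119 (SD, n = 3) in KI, a log2 difference of 0.22 (SE 0.22, 95% interval -0.30 to 0.73, adjusted p = 0.45 by limma). That interval holds a fall as well as a rise. Its size depended on WT 1 and WT 2: leaving out WT 1 gave 0.45 (adjusted p = 0.040 by limma), leaving out WT 2 gave 0.028 (0.92), and leaving out WT 1 together with KI 1 gave 0.55 (0.0025). Under scaling to the older hybridisation spike-ins it turned to -0.31 (adjusted p = 0.32 by limma).

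The 2 probe sets were then compared with each other inside each array, a ratio that multiplying an array by 1 factor cannot change. The log2 ratio of 1430259_at over 1419214_at was 0.012 on WT 1, 0.63 on WT 2 and 0.43 on WT 3. On KI 1, KI 2 and KI 3 it was -1.05, -0.87 and -1.06. All 3 KI arrays were close to each other and below all 3 WT arrays. The ratio averaged 0.36 ± 0.31 (SD, n = 3) in WT and -0.99 ± 0.11 (SD, n = 3) in KI, a difference of -1.35 or 2.55-fold (two-sided exact permutation p = 0.1, the smallest possible). Leaving out any 1 array gave differences from -1.52 to -1.22. The ratio shows that the 2 probe sets changed unequally; it does not show which of them follows the whole transcript.

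**Figure D2:**
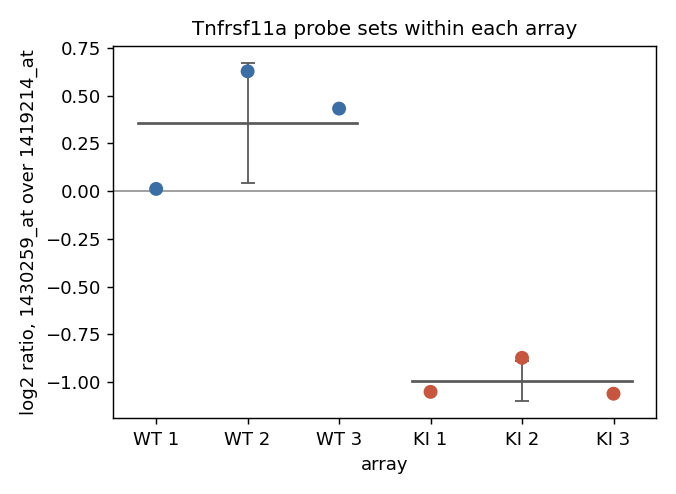
Log2 ratio of Tnfrsf11a probe set 1430259_at over 1419214_at within each array (vertical axis), WT in blue and KI in red; lines are group means and bars ± 1 SD (n = 3). WT arrays sit between 0.012 and 0.63, and KI arrays between -1.06 and -0.87.

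A gap of this size between probe sets of 1 gene was uncommon on these arrays. Among 2971 genes with exactly 2 filtered probe sets, the log2 differences of the pair lay a median of 0.13 apart, and 8 genes (0.269%), Tnfrsf11a included, had a gap of at least 1.35. In 25.1% of these genes 1 probe set passed and the other did not, and in 15.3% the estimates had opposite signs. The annotation gives the 2 Tnfrsf11a probe sets different source cDNAs, and which exons or ends of the transcript each one reads was not analysed here. With both averaged, the log2 difference of Tnfrsf11a was -0.46 (SE 0.17, adjusted p = 0.11 by limma over 18193 genes). Neither probe set is known to read the knocked-in bases, so neither checks the labels of the arrays.

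**Figure D3:**
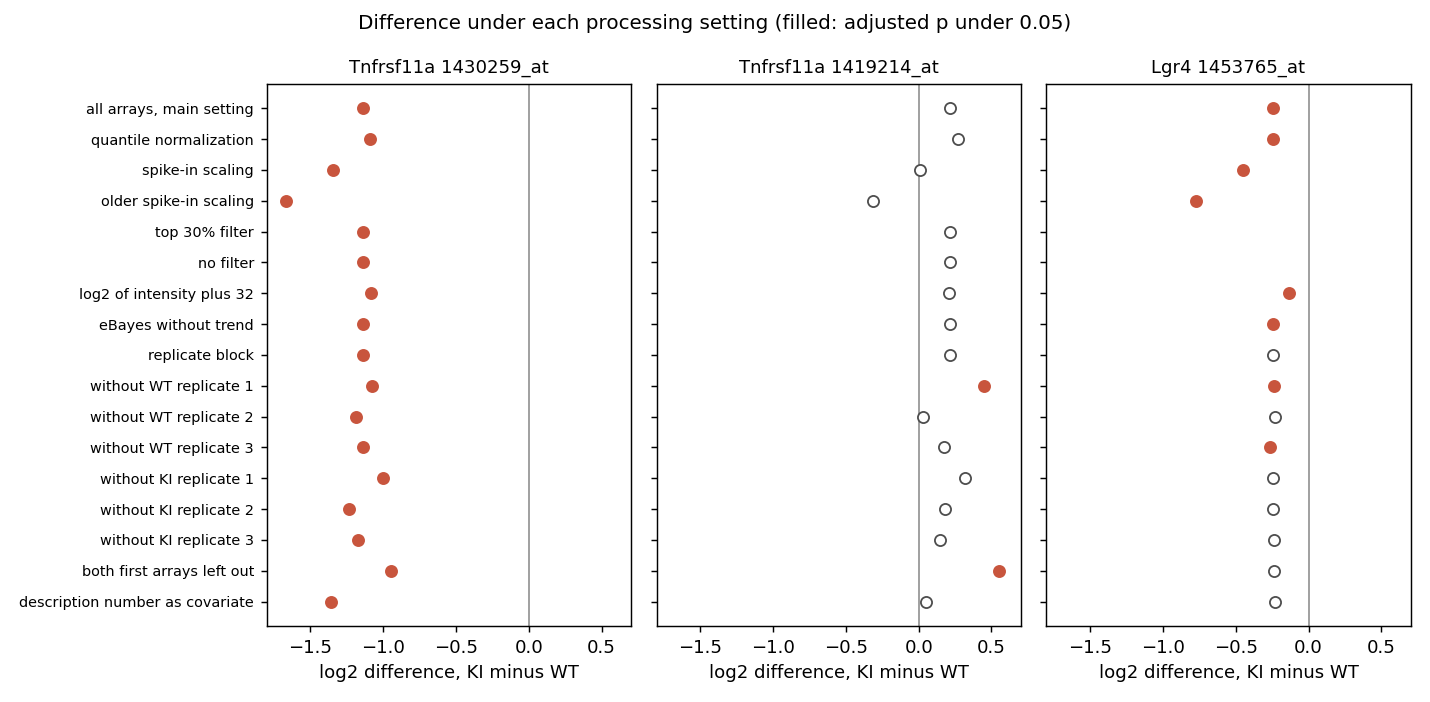
Log2 difference, KI minus WT (horizontal axis), of 3 member probe sets under each processing setting (rows); filled points have an adjusted p under 0.05 by limma. Tnfrsf11a 1430259_at stays between -1.67 and -0.94 and filled throughout, Tnfrsf11a 1419214_at lies on both sides of 0, and Lgr4 1453765_at stays below 0 but is filled in only some settings.

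The genes whose pattern over the 6 arrays was most like each Tnfrsf11a probe set differed between the 2, out of 19487 filtered probe sets of other genes. For 1430259_at they were Rps18, a ribosomal protein gene (Pearson r = 1.000 over 6 arrays), Knop1 (r = 0.999) and Hdac2, which encodes a histone deacetylase (r = 0.999). These genes were lower in KI by different amounts: Rps18 fell by 0.11 on the log2 scale (adjusted p = 0.019), Knop1 by 0.76 (adjusted p = 0.0019) and Hdac2 by 0.96 (adjusted p = 0.0015 by limma). For 1419214_at the nearest were Ufm1, a ubiquitin-like modifier (r = 0.988), Lamtor5, a lysosomal adaptor subunit (r = 0.984), and Cchcr1 (r = 0.978). Ufm1 ran only from 81.7 to 89.3, near the filter at 84.7, and Lamtor5 only from 7602 to 8444. Cchcr1 read 253, 156 and 189 on the WT arrays and 179, 226 and 244 on the KI arrays, with WT 1 highest as for the receptor probe set. Such likeness rests on 6 arrays, and r takes no account of the size of a change.

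Tnfsf11 encodes RANKL itself. The gene lies at chr14:78277446-78308043 (GRCm38.p6). Its transcript is a separate quantity from the RANKL protein added to the dishes. Probe set 1419083_at read 17.4, 18.1 and 15.6 on the WT arrays and 19.1, 17.7 and 19.1 on the KI arrays. These values lie next to the floor of 16, with 1 below it, and the groups overlapped. Probe set 1451944_a_at read 31.0, 25.1 and 27.1 in WT and 30.4, 26.6 and 25.6 in KI, again with overlap. The log2 differences were 0.12 (95% interval -0.025 to 0.26, adjusted p = 0.22) and -0.0067 (95% interval -0.27 to 0.26, adjusted p = 1), both by limma without the filter on low values. In that fit 18.7% of 45037 probe sets passed in either direction, and 10.5% as lower in KI. The direction turned with the scaling for 1419083_at (-0.075 and -0.35 under the newer and older spike-ins), and 1451944_a_at was called lower under the older spike-ins (-0.54, adjusted p = 0.033 by limma), where the median of the filtered probe sets itself moved to -0.57.

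Tnfrsf11b, the gene of the decoy OPG, lies at chr15:54250619-54278484 (GRCm38.p6). Probe set 1418309_at read 35.1, 30.8 and 30.3 on the WT arrays and 24.6, 37.3 and 31.96 on the KI arrays. The KI arrays held both the lowest and the highest value, so the groups overlapped fully. The log2 difference was -0.052 (95% interval -0.47 to 0.37, adjusted p = 0.88 by limma without the filter). It turned to 0.014 without WT 1 and to 0.11 without KI 1, and it was called lower under the older spike-in scaling (-0.58, adjusted p = 0.028 by limma).

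The other Tnfrsf11b probe set, 1449033_at, read 16.6, 15.5 and 14.5 in WT and 23.24, 13.04 and 23.16 in KI. KI 1 and KI 3 were the highest of the 6 arrays, and the other values lay near or below the floor, 3 of them under it. The log2 difference was 0.34 (95% interval -0.059 to 0.74, adjusted p = 0.21 by limma without the filter). Without KI 2 it was 0.52 (adjusted p = 0.019 by limma), and under older spike-in scaling it was -0.11. Markers of stromal cells and osteoblasts, the cells known as the main makers of OPG, were summed on the same arrays. Over 13 of 15 such markers measured, the sum was 9802, 6113 and 3140 on WT 1, WT 2 and WT 3, and 11162, 3087 and 9504 on KI 1, KI 2 and KI 3. This linear sum mostly follows the brightest collagen genes. Col1a2 alone read 5768, 3602 and 1638 on the WT arrays and 6867, 1726 and 5756 on the KI arrays. Alpl, Ibsp, Lepr, Lum, Pdgfra and Sp7, 6 of the 13 markers, lay under the filter. Among the KI arrays, KI 2 had the lowest sum and the lowest value of 1449033_at, whereas 1418309_at ran the other way, with its highest value on KI 2 and its lowest on KI 1. The WT values of 1449033_at lay too near the floor to be ordered. Col1a1, a collagen gene, ran from 264 on WT 3 to 1202 on KI 1, whereas Sp7 and Ibsp, more specific to osteoblasts, stayed between 22.0 and 78.3. Of the 13 markers 0 rose and 1 fell in KI (7.7%), against 11.9% and 14.9% of all genes. The fall was in the proteoglycan gene Dcn (-1.44, adjusted p = 0.0030 by limma). In the unfiltered fit of all probe sets, 1 of 2 Dcn probe sets passed, and the other differed by -0.20. The part of such cells in the Tnfrsf11b values was not tested.

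**Figure D4:**
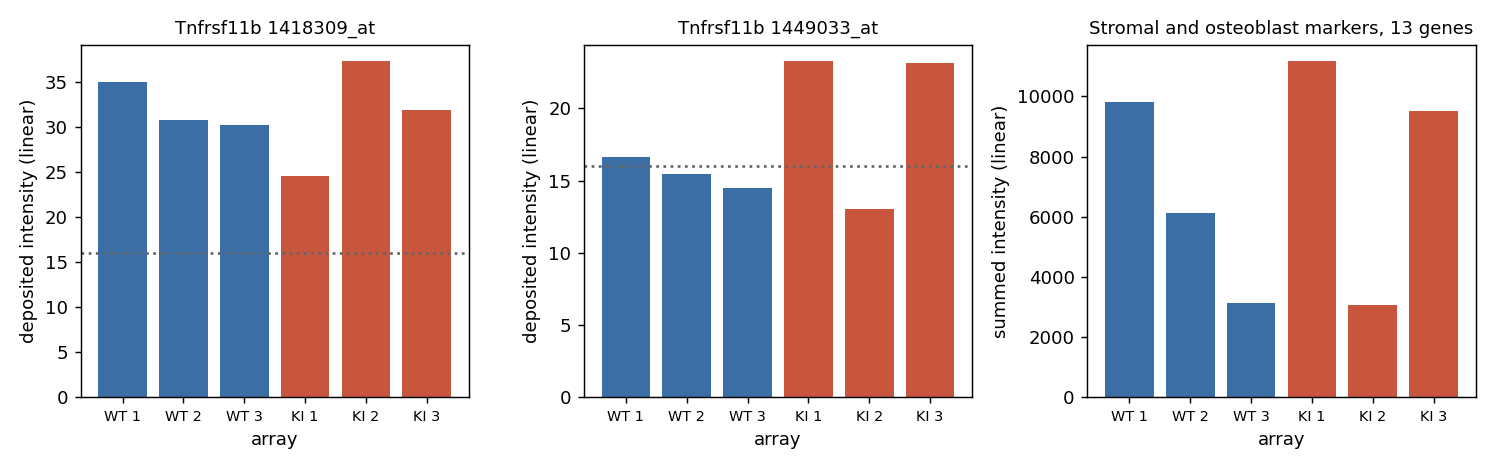
Deposited intensity of Tnfrsf11b 1418309_at (left) and 1449033_at (middle) on each array, with the floor of 16 dotted, and summed intensity of 13 stromal and osteoblast markers (right); linear axes from 0, WT blue, KI red. On KI 2 the sum is lowest (3087), 1449033_at lies under the floor (13.04) and 1418309_at is at its highest (37.3).

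T and B cell markers, of lymphocytes that can make RANKL or OPG, were also compared. Of 8 T cell markers measured, Cd2, Cd3d, Cd3g and Cd8a lay under the filter. Il7r was the only one that rose in KI (1.22 on the log2 scale, adjusted p = 0.0044 by limma). It makes up 12.5% of the measured T cell markers, near the 11.9% of all genes that rose. Their sum was 1138 to 2129 in WT and 3022 to 4122 in KI. Of the other 3 markers above the filter, Cd28 went from a mean of 716 to 1741 (log2 difference 1.51, adjusted p = 0.16), Cd4 differed by 0.65 (adjusted p = 0.26) and Cd3e by -0.019 (adjusted p = 0.93 by limma). Of 6 B cell markers measured 0 passed by limma, also at an unadjusted p of 0.05. Of all genes, 11.9% passed as higher and 14.9% as lower. The sum of the B cell markers was 469 to 965 in WT and 862 to 1139 in KI.

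Lgr4 lies at chr2:109917647-110014257 (GRCm38.p6). Probe set 1453765_at read 43.2, 43.4 and 41.5 on WT 1, WT 2 and WT 3, and 36.1, 36.2 and 35.8 on KI 1, KI 2 and KI 3. The groups did not overlap, and the 3 KI values were nearly equal. The means were 42.7 ± 1.05 (SD, n = 3) in WT and 36.0 ± 0.225 (SD, n = 3) in KI. The log2 level fell by 0.24, or 15.5% (95% interval -0.34 to -0.15, SE 0.038, adjusted p = 0.016 by limma without the filter; two-sided exact permutation p = 0.1). Since the probe set lay under the filter, it was not among the 22518 probe sets of the filtered fit. In the fit without the filter, 10.5% of 45037 probe sets passed as lower in KI.

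That call was narrow. The adjusted p by limma rose to 0.054 when WT 2 was left out, to 0.053 for KI 1, 0.054 for KI 2 and 0.073 for KI 3, although the log2 difference stayed between -0.26 and -0.23 when any 1 array was left out. With log2 of the intensity plus 32 it was -0.13 (adjusted p = 0.036 by limma). Under the older spike-in scaling it was -0.77, or -0.20 relative to the median of the filtered probe sets.

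The brighter Lgr4 probe set, 1433891_at, did not share this pattern. It read 73.2, 67.1 and 65.7 in WT and 68.9, 56.9 and 74.4 in KI, and the KI arrays held both ends of the range. The log2 difference was -0.049 (95% interval -0.35 to 0.25, adjusted p = 0.84 by limma without the filter), and 0.062 without KI 2. Averaged over both probe sets, Lgr4 differed by -0.15 (SE 0.066, adjusted p = 0.17 by limma over genes). The bases upstream of Lgr4, at chr2:109917397-109917646 on the plus strand, are shown from the same RefSeq table as those of Tnfrsf11a, because this is the other gene with a probe set that passed; capitals mark the match to the PU.1 core, on the minus strand, and the other patterns were not in this window.

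Lgr4, 250 bases upstream: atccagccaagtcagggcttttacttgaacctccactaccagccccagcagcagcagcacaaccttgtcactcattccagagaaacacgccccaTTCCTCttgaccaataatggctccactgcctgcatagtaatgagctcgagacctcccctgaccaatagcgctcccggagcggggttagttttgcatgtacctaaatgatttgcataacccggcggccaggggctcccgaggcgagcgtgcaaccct

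The PU.1 core GAGGAA was found in 23.3% of all windows of 250 bases, so its presence here is common. The GC content was 55.6%, against a median of 52.4% over those windows.

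Genes around the 4 members were described from lists, with the brightest probe set standing for a gene and no filter. Over all 18193 genes 11.9% rose and 14.9% fell by limma, with a median log2 difference of -0.0013. Around LGR4, 4 of 18 genes of the R-spondin pathway (22.2%) rose and 0 fell, with 14 not passing and a median of 0.081. At an unadjusted p of 0.05 by limma 6 rose and 0 fell. Gnaq, the G protein subunit through which LGR4 has been described to answer RANKL, rose by 0.31 on the log2 scale (adjusted p = 0.0059), but turned to -0.22 under older spike-in scaling. Gsk3b, a kinase placed downstream of it, differed by 0.33 (adjusted p = 0.031), a call that ended without WT 1 (0.071), WT 2 (0.091), WT 3 (0.053), KI 1 (0.094) or KI 3 (0.0997) and turned to -0.20 under older spike-in scaling. Lrp6, the Wnt co-receptor, rose by 1.10 (adjusted p = 0.030) and Iqgap1, a scaffold protein that binds LGR4, by 0.42 (adjusted p = 0.020), which turned to -0.11 under older spike-in scaling. Both calls ended without WT 2 (0.056 and 0.057), KI 1 (0.092 and 0.068), KI 2 (0.066 and 0.056) or KI 3 (0.084 and 0.069). In the unfiltered fit of all probe sets, 2 of 6 passed for Gsk3b, 4 of 7 for Gnaq, 4 of 7 for Iqgap1 and 2 of 2 for Lrp6. The 2 relatives Lgr5 and Lgr6 lay between 28.3 and 48.3, and the ligand genes Rspo1, Rspo2, Rspo3 and Rspo4 between 19.4 and 75.7, all without passing. Of the 2 ligases that remove Wnt receptors, Rnf43 stayed between 15.9 and 18.2, and Znrf3 differed by -0.16 (adjusted p = 0.30 by limma).

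Of 12 genes for proteins that bind or release OPG and RANKL, 3 passed as higher (25.0%, against 11.9% of all genes), 2 as lower (16.7%, near the 14.9% of all genes) and 7 did not pass (median 0.045). With single arrays left out, as few as 1 passed as higher and 1 as lower. Mmp14, a membrane metalloproteinase that sheds RANKL, fell by 1.15 on the log2 scale (adjusted p = 0.0011), from a mean intensity of 4107 in WT to 1845 in KI. Sdc1, a heparan sulfate proteoglycan that binds OPG, fell by 0.99 (adjusted p = 0.022), a call that ended without WT 2 (0.053), KI 1 (0.073) or KI 3 (0.080). Of the other sheddases, Adam17 rose by 0.32 (adjusted p = 0.0083) but turned to -0.21 under older spike-in scaling, while Adam10 differed by -0.044 (adjusted p = 0.75) and Adam19 by 0.68 (adjusted p = 0.25 by limma). Vps33a, which sorts RANKL to lysosomes, rose by 0.59 (adjusted p = 0.013; 0.051 without KI 3). Rab27a, a GTPase of vesicle release, differed by 0.47 (adjusted p = 0.024), but this call ended without WT 3 (0.054), KI 1 (0.075), KI 2 (0.072) or KI 3 (0.052) and turned to -0.058 under older spike-in scaling. In the unfiltered fit of all probe sets, 1 of 4 passed for Rab27a and 1 of 3 for Adam17. All passed for Mmp14 (3), Sdc1 (4) and Vps33a (2). Tnfsf10, which encodes TRAIL, the other ligand bound by OPG, differed by 0.65 (adjusted p = 0.075 by limma).

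Downstream of RANK, 15 of 22 genes that RANKL induces in osteoclast formation fell (68.2%, against 14.9% of all genes). Of the rest, 1 rose (4.5%, against 11.9%) and 6 did not pass, and the median log2 difference of the list was -0.98. The one that rose was Ostm1, which encodes a partner of a lysosomal chloride channel (0.42, adjusted p = 0.0044 by limma), and it turned to -0.11 under older spike-in scaling. The list holds Acp5 (-0.92), Jdp2 (-1.24), Mmp9 (-2.89), Prdm1 (-1.55), Src (-1.77), Nfatc1 (-0.997), Fos (-1.08) and Ctsk (-0.70), all past the threshold by limma, and these falls were already known when the lists were drawn up. Of 32 RANK signalling genes measured of 35 listed, 7 fell (21.9%, against 14.9% of all genes) and 10 rose (31.2%, against 11.9%). The other 15 did not pass, and the median was 0.075. Src is counted among the falls of both lists. The falls included Traf1 (-3.18), Traf2 (-1.20) and Nfkb2 (-1.47). Traf6, the adaptor that RANK needs for osteoclast formation, differed by -0.15 (adjusted p = 0.16 by limma), and -0.35 under spike-in scaling (adjusted p = 0.032). Vav3, a signalling protein of osteoclasts, rose by 0.47 (adjusted p = 0.0056) on each of its 3 probe sets, and turned to -0.064 under older spike-in scaling; Tec rose by 0.85 (adjusted p = 0.0018; 0.27 under that scaling). The count of signalling genes that rose was 6 without WT 2, KI 1 or KI 2 and 5 without KI 3, and the count that fell was 4 without KI 3. For the LGR4 list, 1 gene rose without WT 2, KI 1 or KI 3, and 2 without KI 2. For the binding and shedding list, 1 gene rose without KI 3 and 1 fell without WT 2, KI 1 or KI 3.

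**Figure D5:**
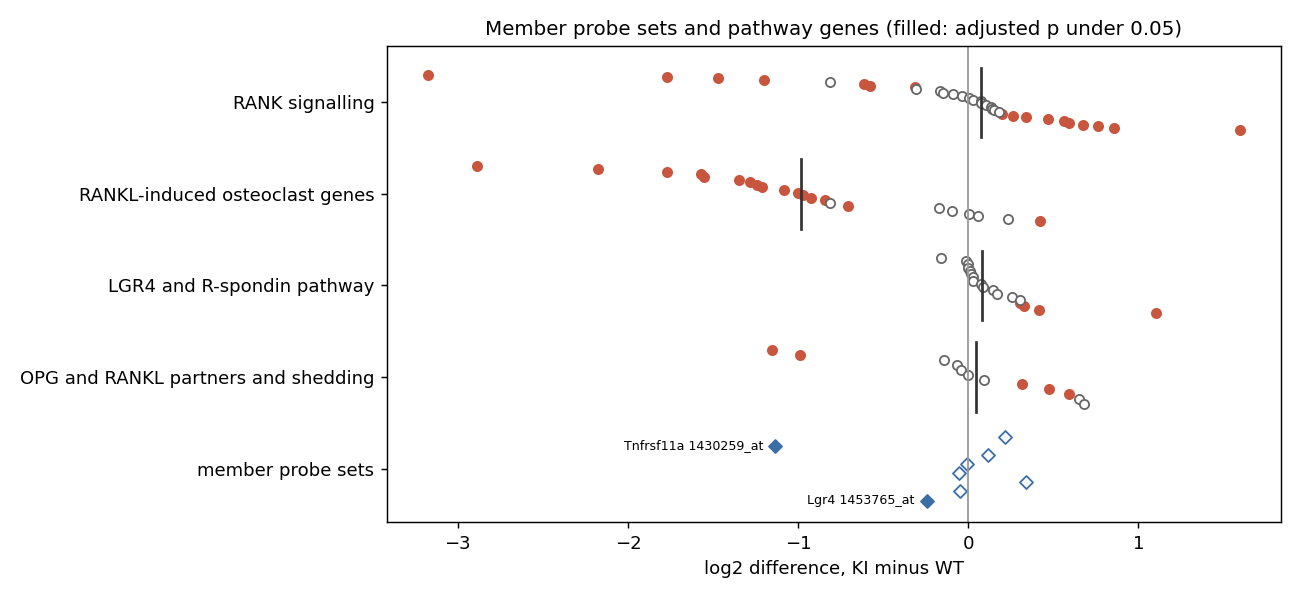
Log2 difference, KI minus WT (horizontal axis), of the 8 member probe sets (blue diamonds) and of genes in 4 pathway lists (circles); filled symbols have an adjusted p under 0.05 by limma, and vertical bars mark each list's median. The RANKL-induced genes lie mostly to the left, with a median of -0.98, and falls of several were already known when the lists were drawn up. Of the 2 Tnfrsf11a probe sets, 1430259_at lies at -1.14 and 1419214_at at 0.22.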

How the data were processed

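Biotin-labelled RNA of 6 samples was hybridised to Affymetrix mouse 3′ expression arrays. The deposited values are linear intensities, 1 for a probe set on an array, made by the authors with Affymetrix Expression Console per the submitters' processing notes, with version, algorithm and normalization not given in the sources used here. Array medians were nearly equal. Intensities were floored at 16 (5.46% of the values of 45037 non-control probe sets lay below) and log2 transformed. The filter kept probe sets whose mean log2 lay above the median. The genotypes were contrasted by limma 3.58.1 under R 4.3.3 (eBayes with an intensity trend; Benjamini-Hochberg over all probe sets fitted). Members under the filter were tested in the same fit without it, and lists in a fit of 1 probe set per gene; the probe set of a gene was kept the same in the alternatives. Ostm1, Il7r, Cd28, Cd4, Cd3e, Dcn, Col1a1, Sp7 and Ibsp were named after their values were seen. By rule, all member probe sets are named, with the 3 most alike genes for each filtered one, and of each list up to 5 genes with the smallest adjusted p and a set of genes always named. The members and lists were chosen with earlier results of these data known. Gene symbols came from the platform annotation, updated by gene identifier (34741 of 34945 matched). RefSeq promoter entries (GRCm38.p6) were found for 3 of the 4 members. The fits were tested on simulated data with few changed probe sets and independent noise. That test does not cover data in which 44.9% of the filtered probe sets pass. With 3 arrays a group, precision is limited by their number.

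Alternatives were quantile normalization, scaling to the newer or older hybridisation spike-in probe sets, no filter, a filter to the top 30%, log2 of the intensity plus 32, no intensity trend, a replicate block, a covariate from the number in the descriptions, leaving out each array or both WT 1 and KI 1, and 1 mean per gene.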

Additional observations from a re-analysis of the deposited data

How the results depend on the processing

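Scaling to the newer spike-ins moved the median difference of the filtered probe sets from -0.04 to -0.25, with 2546 higher and 9011 lower, and the older spike-ins moved it to -0.57, with 728 higher and 10586 lower, against 4345 and 5756 as deposited. Under the newer spike-ins Tnfsf11 1419083_at turned to -0.075, and under the older ones it was -0.35, Tnfrsf11a 1419214_at -0.31, Tnfrsf11b 1449033_at -0.11, and Tnfsf11 1451944_a_at (-0.54) and Tnfrsf11b 1418309_at (-0.58) passed. Without WT 1 and KI 1, Tnfrsf11a 1419214_at was 0.55 and passed, Lgr4 1453765_at (-0.24) did not, and Tnfsf11 1451944_a_at (0.0044) and Tnfrsf11b 1418309_at (0.18) changed sign, with 1 binding and shedding gene lower. With the covariate, Tnfsf11 1451944_a_at was 0.14, Lgr4 1453765_at (-0.23) no longer passed, and 6481 probe sets passed.

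The labels do not state that a shared replicate number marks a shared litter, day or batch, so the numbers were not taken to pair the arrays. Over the filtered probe sets, same-numbered arrays tended only modestly to deviate from their group means in opposite directions (r = -0.40, -0.29 and -0.30). These values do not by themselves show that the arrays were unpaired. With the replicate block 6184 probe sets passed in place of 10101, Tnfrsf11a 1430259_at kept its call (adjusted p = 0.021) and Lgr4 1453765_at (-0.24, adjusted p = 0.10) lost it, as did the macrophage and T cell markers that had passed.

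Leaving out each array in turn gave ranges of 0.028 to 0.45 for Tnfrsf11a 1419214_at, -0.079 to 0.077 for Tnfsf11 1451944_a_at, -0.19 to 0.11 for Tnfrsf11b 1418309_at, 0.25 to 0.52 for 1449033_at, -0.13 to 0.062 for Lgr4 1433891_at and -0.26 to -0.23 for 1453765_at. Tnfrsf11a 1430259_at kept its direction and call in all 16 alternatives, and its ratio to 1419214_at moved by at most 0.17 in the 9 run, less than the pooled within-group SD of 0.23 but more than the KI SD of 0.11 in 3 of them. The cause of the other changes was not tested.

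RANK signalling genes numbered 6 higher under the newer spike-ins, 1 higher and 12 lower under the older ones, 1 and 4 with the block and 3 and 4 with the covariate (5 to 10 and 4 to 8 leaving out an array). RANKL-induced genes had 0 higher under either spike-in scaling or the block, with 9 lower under the block, and 2 higher with the covariate. LGR4 pathway genes numbered 1 higher and 1 lower, 0 and 4, 0 higher with the block and 1 with the covariate (1 to 3 leaving out an array). Binding and shedding genes numbered 1 higher, then 0 and 4, 0 and 1, and 1 and 1 under these (1 to 3 and 1 to 2 leaving out an array). Values near the floor limit what the 6 dim probe sets can show.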
